A study of Mus musculus with 12 samples.

Results

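Small RNA-seq of mouse embryonic stem cells (ESCs) was examined at 8 annotated features of 3 imprinted domains outside Dlk1-Dio3. They are H19 with Mir675, Igf2 with Mir483, Mest with Mir335, and the pair Mir296 and Mir298 beside Nespas and Gnas. The features were chosen by name and are 8 of the 32101 in the deposited table, whose values cover 20 to 24 nt reads. Small RNAs were measured in 12 libraries of 3 genotypes to follow what loss of the DNA methyltransferase gene Dnmt1, alone or with Dicer, does to small RNAs.

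There were 6 wild-type libraries (WT, labelled Wildtype), 2 Dnmt1 knockout libraries (Dnmt1 KO, labelled Dnmt1 -/-) and 4 double knockout libraries (Dicer/Dnmt1 KO, labelled Dicer/Dnmt1 -/-). All carry the labels ESC and background strain E14, whereas the study's methods describe the Dnmt1 loxP line as C57BL/6, with the Dicer/Dnmt1 lines derived from it by CRISPR. According to those methods Cre, induced by tamoxifen, removed the floxed sequence, and cells grew in serum and LIF with or without feeders. The labels give neither the day after deletion nor whether a feeder layer was present, and they do not say whether WT is the uninduced line. For small RNA-seq of its conditional Dicer/Dnmt1 double knockout, the paper names non-induced cells of the floxed line as the WT reference. It also made a constitutive Dicer knockout in the Dnmt1 line by CRISPR, and the labels do not say which kind was sequenced here. Library titles carry the numbers 1 to 3 for WT (number 2 without the letters WT), 1 and 2 for Dicer/Dnmt1 KO and no number for Dnmt1 KO, each with a library A and a library B. Libraries that share a number are called a pair. What numbers and letters stand for is not stated, so Dnmt1 KO may be 1 culture sequenced as 2 libraries, and p-values below measure the spread between libraries, which may in part be technical.

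Imprinted genes are expressed from 1 parental allele according to DNA methylation set in the germline and kept by DNMT1. H19, a maternally expressed non-coding RNA and precursor of miR-675, shares a control region with the paternally expressed growth factor gene Igf2, which carries miR-483. Mest is a paternally expressed gene of the hydrolase fold with miR-335 in an intron, and the Gnas region holds maternally, paternally and biallelically expressed transcripts, among them the antisense RNA Nespas. Canonical miRNAs are cut from their hairpins by DICER.

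The features lie at the following NCBIM37 positions, all taken from the deposited table. H19 occupies chr7:149761434-149764048 on the minus strand, and Mir675 (chr7:149762969-149763052) lies within an H19 exon. Igf2 occupies chr7:149836673-149852721, also on the minus strand and 72624 bases from H19, and Mir483 (chr7:149840829-149840901) lies in an Igf2 intron. Mest occupies chr6:30673547-30698457 on the plus strand, with Mir335 (chr6:30691299-30691396) in an intron and the gene Copg2 overlapping it on the other strand. Mir296 (chr2:174092548-174092626) and Mir298 (chr2:174093005-174093086) lie 378 bases apart on the minus strand, overlap no annotated gene in this gene set, and start 13651 bases from Nespas and 16734 bases from Gnas.

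The mature sequences (RefSeq, table build GRCm38.p6) are shown because the counts are per hairpin and cannot separate the 2 arms, so each value below stands for both sequences of its miRNA. Capitals mark the seed, bases 2 to 8. The sequences of the 3 miRNAs with appreciable counts come first.
miR-335-5p: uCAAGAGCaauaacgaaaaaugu
miR-335-3p: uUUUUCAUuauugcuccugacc
miR-298-5p: gGCAGAGGagggcuguucuuccc
miR-298-3p: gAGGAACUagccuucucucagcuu
miR-296-5p: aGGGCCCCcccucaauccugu
miR-296-3p: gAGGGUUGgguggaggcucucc
miR-675-5p: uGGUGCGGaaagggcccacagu
miR-675-3p: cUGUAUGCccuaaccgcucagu
miR-483-5p: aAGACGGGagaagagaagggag
miR-483-3p: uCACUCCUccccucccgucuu
The 10 arms have 10 different seeds, none shared with another of the 1679 mature names in the table, and each mature sequence occurs once in the NCBIM37 genome, within its own hairpin. Reads of these arms were therefore not shared with a second genomic copy when they matched exactly. The arms differed in base composition, from 30.4% G and C in miR-335-5p to 68.2% in miR-296-3p.

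Libraries held between 8710 (Dicer/Dnmt1 KO 1B) and 245184 (WT 1A) reads, so that 1 read was worth between 4.08 and 114.8 RPM (reads scaled to 1000000 library reads). WT 2A was the other shallow library, with 16142 reads. As a check on the Dicer label, reads in miRNA features came to 29.0 to 69.5% of library reads in WT, to 62.7 and 65.4% in Dnmt1 KO, and to 6.68 to 12.01% in Dicer/Dnmt1 KO. In bulk RNA, fewer cells expressing a miRNA and less of it per cell cannot be told apart. Of the 8 features, 4 (Mir335, Mest, Mir298 and Mir296) passed the filter on low values, and H19, Mir675, Igf2 and Mir483 did not. They reached the filter level in 4 to 6 WT libraries and both Dnmt1 KO libraries, but in Dicer/Dnmt1 KO only Mir298 did (3 libraries), so the filter favours features that are lower there. The 4 were called lower in Dicer/Dnmt1 KO than in WT, against 19% of the 683 features tested and 81 of the 133 tested miRNAs. Mest is not a separate measurement here, since 701 of its 711 reads lay in Mir335. None of the 4 was called in Dnmt1 KO against WT, where 6.59% of features and 28 of the 133 miRNAs were called higher. Both Dnmt1 KO libraries lay above every WT library in RPM for the 4 tested features, a pattern seen in 17.1% of the 683 features. In Dicer/Dnmt1 KO every library lay below every WT library for Mir335 and Mest, against 12.9% of features, and below both Dnmt1 KO libraries for the 4 tested features, against 22.3%.

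**Figure D1:**
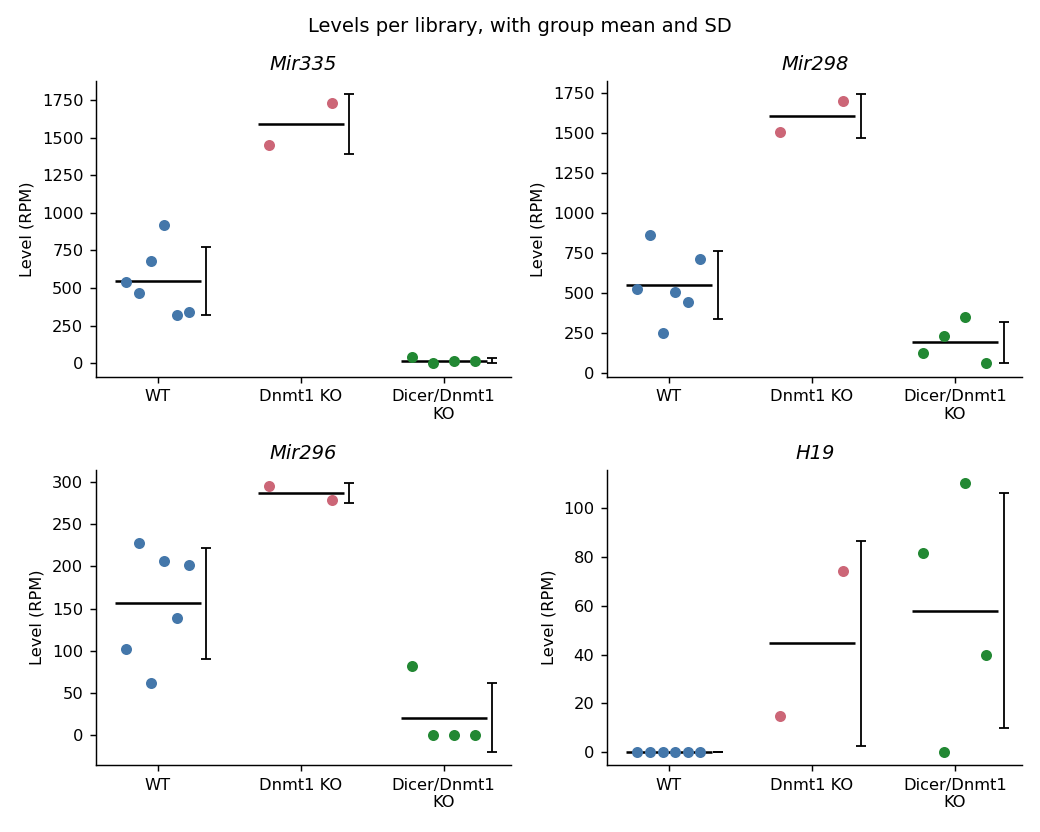
Levels (RPM, linear axes) of Mir335, Mir298, Mir296 and H19 in each library by genotype, 1 point per library. Horizontal lines are group means and the bars to their right show SD (n = 6, 2 and 4), drawn below 0 where the SD exceeds the mean. Both Dnmt1 KO libraries lie above every WT library for the 3 miRNAs, while H19 has no read in any WT library.

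Mir335 was 318.7 to 920.1 RPM in WT and all but absent from Dicer/Dnmt1 KO. Its WT levels were 542 and 469 RPM in pair 1 (133 and 68 reads in A and B), 681 and 920.1 RPM in pair 2 (11 and 129 reads), and 319 and 340.5 RPM in pair 3 (23 and 49 reads). Dnmt1 KO reached 1448 RPM in library A and 1729 RPM in library B (98 and 186 reads). The double knockout had 40.8 RPM in 1A, none in 1B, 15.8 RPM in 2A and 13.3 RPM in 2B, which were 1, 0, 1 and 2 reads. Group means were 545 ± 227 (SD, n = 6) in WT, 1588 ± 198 (n = 2) in Dnmt1 KO and 17.5 ± 17.0 RPM (n = 4) in Dicer/Dnmt1 KO. In the limma fit over 683 features, on the log2(RPM + 10) scale after TMM scaling, Mir335 fell by 4.96 (SE 0.56) from WT to Dicer/Dnmt1 KO (adjusted p = 1.19e-05). From Dnmt1 KO to Dicer/Dnmt1 KO the log2 difference was -6.74 (SE 0.75, limma adjusted p = 1.97e-05).

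Against WT, the log2 difference of Mir335 in Dnmt1 KO was 1.78 (SE 0.71), with a limma adjusted p of 0.196 (unadjusted p = 0.026). Without both libraries of the wild-type pair titled E14 2, Mir335 was called higher, with a log2 difference of 2.24 (SE 0.56) and a limma adjusted p of 0.0147. Leaving out that pair raised the calls over all features as well, to 14.5% of 660 called higher.

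Mest followed its miRNA, because 701 of its 711 reads over the 12 libraries lay in Mir335 (98.6%, 95% Wilson interval 97.4 to 99.2%, counting error only). The Mest feature spans the whole gene, so its values of 552 ± 226 RPM in WT, 1600.3 ± 194 in Dnmt1 KO and 20.8 ± 17.2 in Dicer/Dnmt1 KO repeat those of Mir335 and are not a second measurement. Against WT its fitted log2 difference was -4.82 (SE 0.57, limma adjusted p = 1.73e-05) in the double knockout and 1.77 (SE 0.72, adjusted p = 0.206) in Dnmt1 KO. The 10 reads of Mest outside Mir335 were spread over 7 libraries with at most 3 in any of them. They gave 6.69 ± 5.86 RPM in WT (n = 6) and 3.32 ± 6.64 in Dicer/Dnmt1 KO (n = 4), and the difference of -3.37 RPM was within the spread (two-sided exact permutation test, p = 0.429). Dnmt1 KO held 14.8 and 9.29 RPM outside Mir335, 1 read in each library. A change of the Mest transcript itself was thus not detectable at this depth, and reads of Mest and of Copg2 on the other strand were not separated by strand.

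Mir298 and Mir296, the pair beside Nespas and Gnas, also had their highest levels in RPM in Dnmt1 KO. In WT, Mir298 stood at 526 and 862 RPM in pair 1, 248 and 506 RPM in pair 2, and 443 and 709 RPM in pair 3, the lowest value resting on 4 reads of the shallow WT 2A. It reached 1507 RPM in Dnmt1 KO A (102 reads) and 1701 RPM in Dnmt1 KO B (183 reads). The double knockout kept 122 RPM in 1A, 229.6 in 1B, 347 in 2A and 59.7 in 2B (3, 2, 22 and 9 reads), so that Mir298 was the only miRNA of the 3 with reads in every library of this group. The ranges of WT and Dicer/Dnmt1 KO overlapped, with 347 RPM in Dicer/Dnmt1 KO 2A above the 248 RPM of WT 2A. Group means were 549 ± 213 (SD, n = 6) in WT, 1604 ± 137 (n = 2) in Dnmt1 KO and 189.7 ± 126 RPM (n = 4) in Dicer/Dnmt1 KO.

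In the same limma fit Mir298 fell by 2.45 (SE 0.40, adjusted p = 0.00029) on the log2 scale from WT to Dicer/Dnmt1 KO, and the difference from Dnmt1 KO to Dicer/Dnmt1 KO was -4.24 (SE 0.54, adjusted p = 4.61e-05). When all 14232 features with a read were fitted without a filter, the call of Mir298 against WT was lost (limma adjusted p = 0.148). For Dnmt1 KO against WT the log2 difference of 1.79 (SE 0.51) had a limma adjusted p of 0.0516, just on the far side of the threshold of 0.05. Under the alternatives this value ranged from 0.0182 to 0.832, and Mir298 passed the threshold in 10 of 23 of them.

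Mir296 was the scarcest of the 3 in reads. Its WT levels were 102 and 228 RPM in pair 1, 62.0 and 207 RPM in pair 2, and 139 and 201 RPM in pair 3 (25, 33, 1, 29, 10 and 29 reads in that order). Dnmt1 KO reached 296 RPM in A and 279 RPM in B (20 and 30 reads). In Dicer/Dnmt1 KO only library 1A had any, 81.7 RPM from 2 reads, which lies above WT 2A with its single read. Means were 156 ± 66.1 (SD, n = 6), 287 ± 11.8 (n = 2) and 20.4 ± 40.8 RPM (n = 4). In the double knockout its fitted log2 difference was -3.54 against WT (SE 0.56, limma adjusted p = 0.00022) and -4.67 against Dnmt1 KO (SE 0.75, adjusted p = 0.00028). That of Dnmt1 KO from WT was 1.12 (SE 0.71, adjusted p = 0.437).

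The ratio of Mir298 to Mir296 reads within a library was 2.45 to 5.16 in WT and 5.1 and 6.1 in Dnmt1 KO. In Dicer/Dnmt1 KO it had a value only in 1A, where it was 1.5 from 3 and 2 reads. The ratio of WT 1A (5.16) lay above that of Dnmt1 KO A (5.1), so the ranges of these genotypes overlapped. The ratio of Mir335 to Mir298, from different chromosomes, ranged from 0.480 to 2.75 in WT and was 0.961 and 1.02 in Dnmt1 KO. In the double knockout it ranged from 0 to 0.333, below every other library but on few reads. These were 1 and 3 reads of Mir335 and Mir298 in 1A, 0 and 2 in 1B, 1 and 22 in 2A, and 2 and 9 in 2B.

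**Figure D2:**
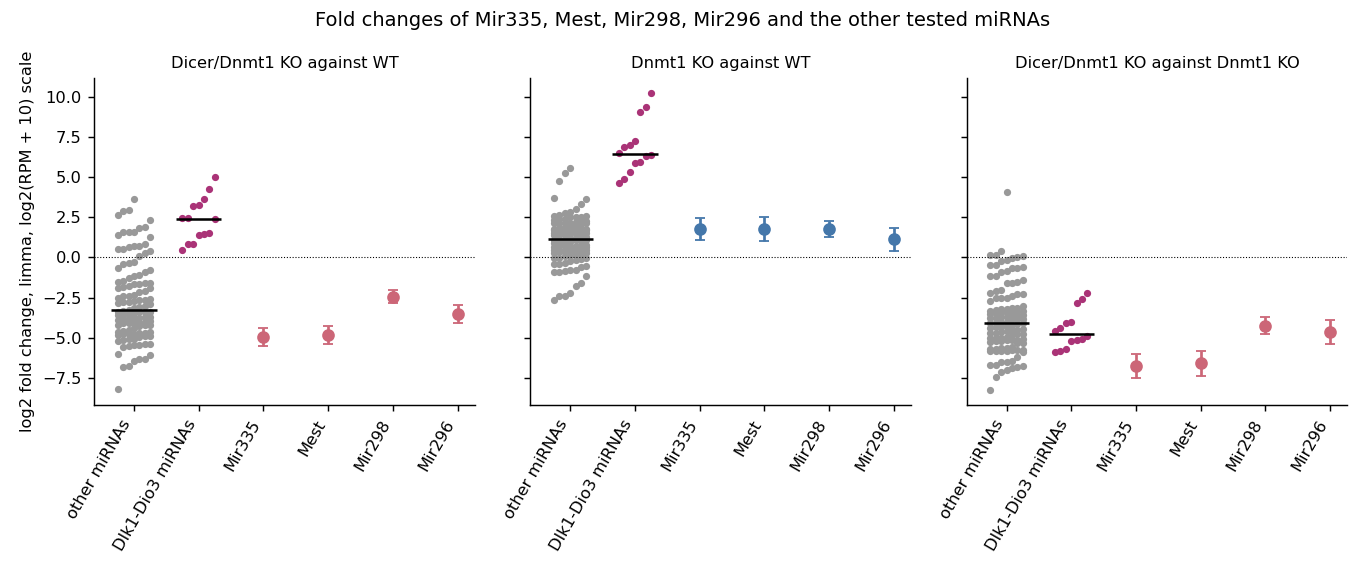
Log2 fold changes from the limma fit, log2(RPM + 10) scale, in the 3 comparisons. Grey points are the tested miRNAs that are neither shown singly nor lie between Dlk1 and Dio3, purple points the 14 miRNAs between Dlk1 and Dio3, black lines their medians. Mir335, Mest, Mir298 and Mir296 are shown with SE, red where the adjusted p is under 0.05 and blue otherwise. The 4 are below 0 in both comparisons of Dicer/Dnmt1 KO and between 1.12 and 1.79 in Dnmt1 KO against WT. The purple points are those that passed the filter, which in this domain none did through WT.

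The position of the 3 miRNAs among all 133 tested miRNAs was as follows. In Dicer/Dnmt1 KO against WT, 81 of 133 miRNAs were called lower and 16 higher, with a median log2 difference of -2.75, against -0.09 over all 683 features. Counted from the most negative, Mir335 ranked 19, Mir296 ranked 53 and Mir298 ranked 74. In Dicer/Dnmt1 KO against Dnmt1 KO, 99 of 133 miRNAs were called lower and none higher, with a median of -4.17, and Mir335 ranked 7, Mir296 ranked 53 and Mir298 ranked 65. All 4 tested features were called lower in that comparison, against 21.7% of all features. The fall of Mir298 was thus close to that of the median miRNA, while Mir335 lay toward the strong end. The pseudocount of 10 RPM limits the fall of a feature as low as Mir296. With a pseudocount of 1 the log2 differences against WT were -6.27 for Mir335, -6.02 for Mir296 and -2.56 for Mir298. Ranks were not computed at that setting.

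In Dnmt1 KO against WT, 28 of 133 miRNAs were called higher and 1 lower, with a median of 1.4. Counted from the most positive, Mir298 ranked 47, Mir335 ranked 50 and Mir296 ranked 75.

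The miRNAs between Dlk1 and Dio3 on chromosome 12, another imprinted domain, served as contrast. Of 57 in the interval, 45 had a read and 14 were tested. All 14 reached the filter level in both Dnmt1 KO libraries and none in 2 WT libraries, so that their calls in Dnmt1 KO, all 14 higher at a median log2 difference of 6.45, were largely fixed by the filter and describe them only. The other 31 with a read stayed at or below 13.9 RPM in any WT library and 236 RPM in either Dnmt1 KO library, and 30 of them had a higher mean in Dnmt1 KO. Over all 57 the summed level ranged from 27.8 to 186 RPM in WT and was 51567 and 53474 RPM in Dnmt1 KO and 2181 to 11478 RPM in the double knockout. Mir335, Mir298 and Mir296 reached the filter level in 6, 6 and 4 WT libraries. Against WT in the double knockout, 8 of the 14 were called higher and none lower, at a median of 2.41. Whether the domains differ was not tested, and both comparisons use the same WT libraries.

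**Figure D3:**
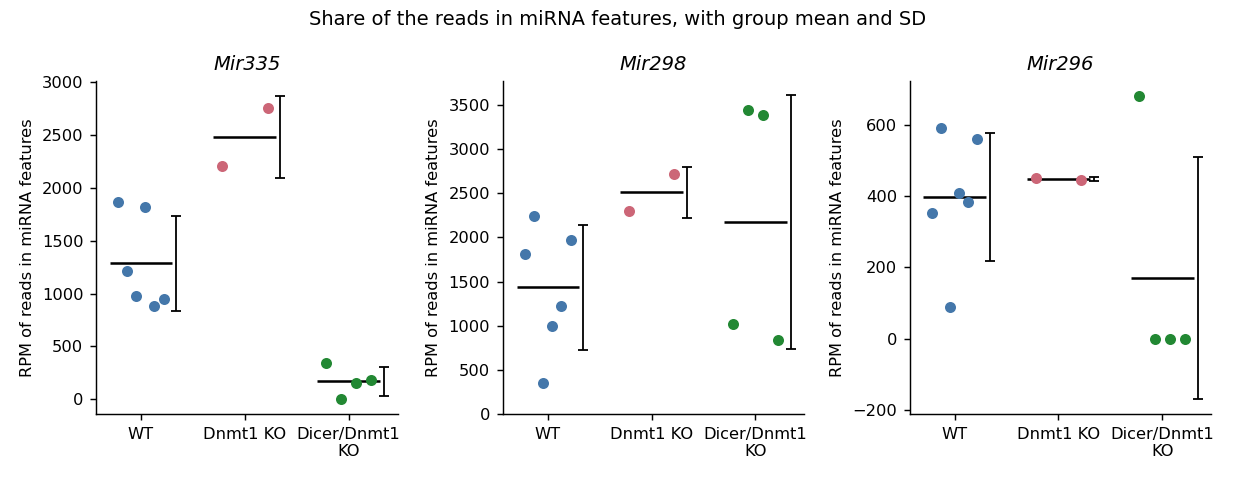
Reads of Mir335, Mir298 and Mir296 in each library, scaled to miRNA reads (RPM of reads in miRNA features), with group means and SD (n = 6, 2 and 4). The Mir335 points of Dicer/Dnmt1 KO run from 0 to 340 and those of WT from 884 to 1870. For Mir298 the points of Dicer/Dnmt1 KO, 837 to 3436, lie within the WT range of 357 to 2238 and above it.

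Because the share of miRNA reads differed between the genotypes, levels were also expressed as RPM of the reads in miRNA features. On this scale Mir335 ranged from 884 to 1870.4 in WT and reached 2212 and 2757 in Dnmt1 KO. The double knockout had 339.9 in 1A, none in 1B, 154 in 2A and 186 in 2B, from 0 to 2 reads per library. Mir298 was 357 to 2238 in WT and 2303 and 2713 in Dnmt1 KO. In Dicer/Dnmt1 KO Mir298 was 1020 and 3436 in 1A and 1B (3 and 2 reads) and 3384 and 837 in 2A and 2B (22 and 9 reads). Of these, 1020 and 837 lay inside the WT range and 3436 and 3384 above it. Mir296 was 89.2 to 591 in WT and 452 and 445 in Dnmt1 KO, so that its Dnmt1 KO values, higher in RPM, lay inside the WT range on this scale. In the double knockout it was 679.8 in 1A, from 2 reads, and 0 in the other libraries. The Dicer/Dnmt1 KO values on this scale rest on 582 to 10747 miRNA reads per library.

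H19 had no read in any WT library and 24 in the knockouts. The 6 WT libraries together held 762641 reads, and a count of 0 allows up to 3.93 RPM over the group (3 reads, counting error only). Dnmt1 KO had 1 read in library A (14.8 RPM) and 8 in library B (74.3 RPM). The double knockout had 2 reads in 1A (81.7 RPM), none in 1B, 7 in 2A (110.4 RPM) and 6 in 2B (39.8 RPM), and the count of 0 in the shallow 1B allows up to 344 RPM. Pooled over the group, H19 stood at 60.6 RPM in Dicer/Dnmt1 KO, 15.4-fold the WT limit with its 15 reads taken as exact. These RPM carry no scaling factors, and without them the median of all features moved up by 0.70 on the log2 scale in this comparison. The difference in mean H19 level outside Mir675 was 58.0 RPM unscaled and 39.6 RPM with TMM scaling. Dnmt1 KO pooled to 51.3 RPM, a value that rests on library B, which held 8 of the 9 reads.

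These H19 reads were too few for the filter. In the limma fit without a filter the adjusted p was 0.0546 for Dicer/Dnmt1 KO against WT and 0.0997 for Dnmt1 KO against WT. H19 was not called between the knockouts (limma adjusted p = 1 without a filter).

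**Figure D4:**
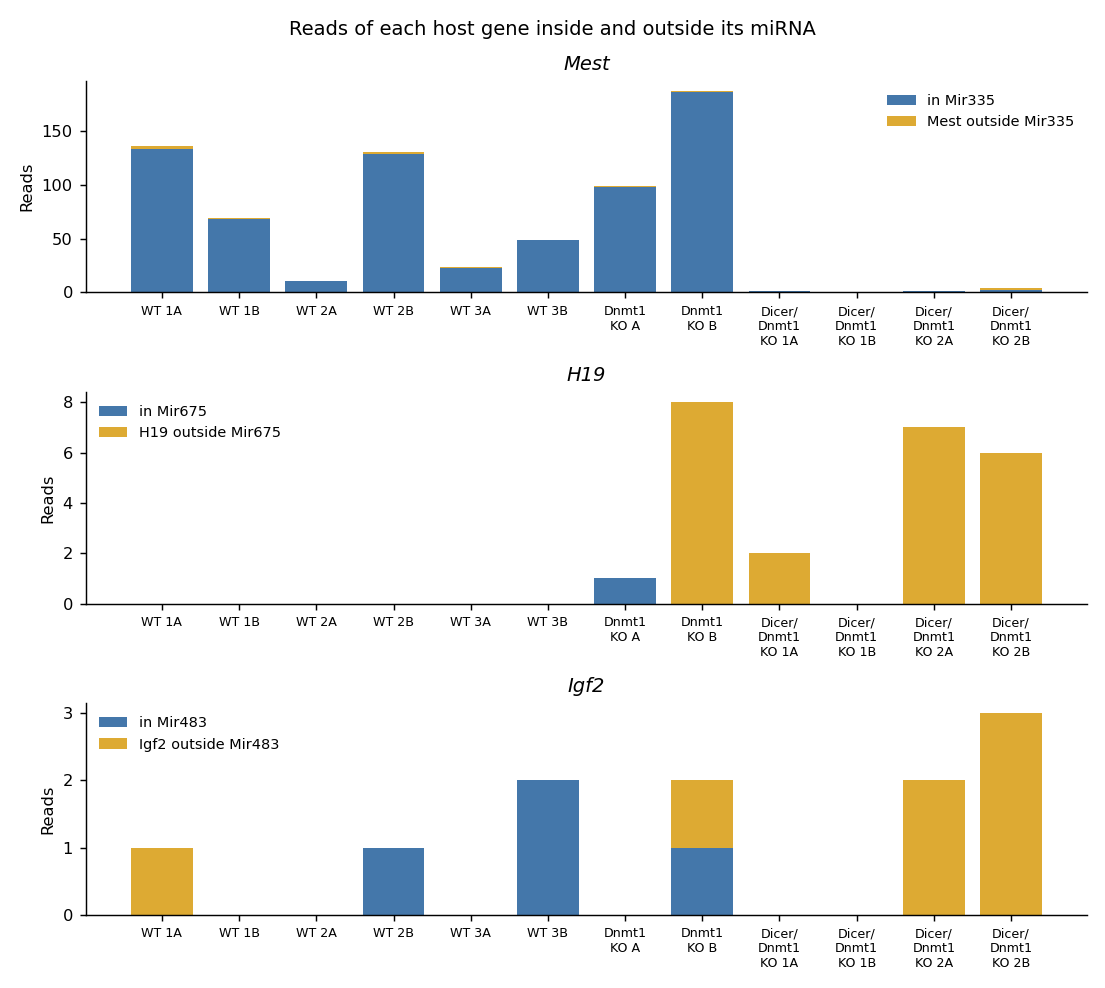
Reads per library of Mest, H19 and Igf2, split into those inside the embedded miRNA (blue) and those outside it (yellow), with a separate linear axis for each gene. Mest reads are almost all Mir335, with 10 outside, while 23 of 24 H19 reads lie outside Mir675 and come from the knockout libraries alone.

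Of the 24 H19 reads only 1 lay in Mir675, in Dnmt1 KO A, and Mir675 had no read in the 6 WT and 4 Dicer/Dnmt1 KO libraries. The 23 reads outside the hairpin were 20 to 24 nt RNAs from elsewhere in the gene, with the strand not recorded. Outside Mir675, Dnmt1 KO had 0 reads in A and 8 in B, and the double knockout as many as the whole gene, at a mean of 58.0 ± 48.3 RPM (SD, n = 4) against 0 in WT (n = 6). A two-sided exact permutation test of that difference gave p = 0.0667 (0.2 after adjustment over the 3 hosts), where the smallest possible p, with libraries treated as independent, is 0.00952. Of 13 alternatives only the one without Dicer/Dnmt1 KO 1B, the shallow library with no H19 read, gave an exact permutation p under 0.05 (0.0238, a difference of 77.3 RPM, not adjusted over the hosts), and the other 12 gave 0.0667 to 0.2. The 0.2 came with A and B summed, where 2 pairs against 3 cannot give a lower p, so that alternative could not pass 0.05.

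Igf2 and Mir483 were close to the limit of detection in every group. Igf2 had 1, 0, 0, 1, 0 and 2 reads in WT 1A to 3B, 0 and 2 in the Dnmt1 KO libraries, and 0, 0, 2 and 3 across the double knockout libraries 1A to 2B. Of these 11 reads, 4 lay in Mir483, namely 1 in WT 2B, 2 in WT 3B and 1 in Dnmt1 KO B. Dicer/Dnmt1 KO had no read of Mir483, which allows up to 12.1 RPM over the group. Its 5 Igf2 reads all lay outside the hairpin, at 12.9 ± 15.6 RPM (SD, n = 4) against 0.680 ± 1.67 RPM in WT (n = 6), a difference of 12.2 RPM that was within the spread (two-sided exact permutation test, p = 0.267). Whether these reads come from Igf2 or from Igf2as, annotated on the other strand, cannot be told apart without strand. Neither Igf2 nor Mir483 was called in any comparison of the limma fit without a filter.

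Across the 12 libraries the patterns of the 4 tested features were alike, with Spearman rho of 0.94 between Mir296 and Mir298, 0.85 between Mir335 and Mir298, and 0.89 between Mir335 and Mir296. These libraries fall into 3 genotypes that share depth and miRNA share, so the coefficients are descriptions only. Outside overlapping features, the patterns closest to Mir335 were those of Copz1 (rho 0.99) and Fam33a (0.97), and for Mest those of Copz1 and Ttll10 (0.99 and 0.98). These 3 protein-coding features hold miRNAs as Mest does: Mir148b accounted for 98.2% of the Copz1 reads, Mir301 for 95.7% of those of Fam33a, and Mir200b, Mir200a and Mir429 lie within Ttll10. Closest to Mir298 were Mir30a and Mir532 (0.97 and 0.96), and closest to Mir296 were Mir30d (0.95) and Mir298.

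Other genes of the same domains and other imprinted genes gave few reads of this size. Of 19 listed genes of the H19 to Kcnq1ot1, Mest and Gnas regions, 17 were in the table, 11 had a read and none passed the filter, and their summed level was 107 to 222 RPM in WT, 92.9 and 118 RPM in Dnmt1 KO and 0 to 344 RPM in the double knockout. Of 40 imprinted genes of other domains, 36 were in the table, 25 had a read and 2 passed, Peg10 and Igf2r, neither of which was called in any of the 3 comparisons. Peg10, a retrotransposon-derived gene, had log2 differences of 1.62 (SE 0.72, limma adjusted p = 0.131) in Dicer/Dnmt1 KO and 1.52 (SE 0.91, adjusted p = 0.416) in Dnmt1 KO against WT. Igf2r, the receptor that clears IGF2, had 0.22 (SE 0.94, adjusted p = 0.909) and -1.04 (SE 1.19, adjusted p = 0.702).

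Levels of markers of other cell types went in differing directions in the knockout groups. The summed level of 21 feeder or mesenchymal markers, 17 of them with a read, was 11281 to 19500.0 RPM in WT, 46810 and 57190 in Dnmt1 KO and 13338 to 43514 in the double knockout. Mir21, Mir22 and Mir143, abundant in differentiated cells, made up most of it and were called higher in Dnmt1 KO than in WT. They were 3 of the 7 listed markers tested, against 6.59% of the 683 features and 28 of the 133 miRNAs called higher. Mir143 was also called higher in the double knockout than in WT (log2 difference 2.95, SE 0.55, limma adjusted p = 0.0009), and Mir27b lower. Mir21 and Mir22 were not called there, with log2 differences of -0.66 and -0.78. Of the 7 tested, 3 had positive and 4 negative differences in that comparison. Over all 683 features, 35 were called higher and 130 lower. Thy1, Lum and Postn had no read in any group. Acta2, Col1a1, Col1a2 and Col3a1 had none in WT or Dnmt1 KO and 8, 4, 3 and 1 reads in Dicer/Dnmt1 KO. In WT, Dnmt1 KO and Dicer/Dnmt1 KO, Mir214 had 1, 6 and 9 reads, Vim 2, 2 and 8, and Fn1 31, 7 and 35. Endoderm markers, nearly all Mir192, summed to 180.1 to 1487 RPM in WT, 1995 and 2230.3 in Dnmt1 KO and 0 to 94.6 in the double knockout, with Afp, Ttr and Apoa1 at 0 throughout. Trophoblast markers summed to 0 to 124 RPM, 102 and 163 RPM, and 0 to 163 RPM in the same order, with Cdx2, Elf5 and Eomes at 0. The ESC markers, chiefly the Mir290 to Mir295 cluster, were present in WT and Dnmt1 KO at 28683 to 93372 and 56019 to 99663 RPM and stood at 1320.5 to 4246 RPM in Dicer/Dnmt1 KO. This sum is nearly all miRNAs, of which 81 of 133 tested were called lower in that group than in WT. Among listed ESC genes that are not miRNAs, mean RPM was higher there than in WT for Sox2 (48.9 against 17.9), Nanog, Esrrb, Dppa5a, Zfp42 and Klf4. It was lower for Pou5f1 (0 against 23.2) and Tdgf1 (7.26 against 16.7), all on few reads. The part of such markers in the levels of Mir335, Mir298, Mir296, H19 and Igf2 in either knockout was not tested.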

How the data were processed

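The 12 libraries were grouped by the genotype label. Per the study's methods and the submitters' processing notes, the authors trimmed reads with Trim Galore, mapped them with Bowtie2 to NCBIM37 and counted 20 to 24 nt reads over whole gene intervals. The notes name Trim Galore 0.3.5 and Bowtie2 2.2.6, whereas the paper gives a different version of Trim Galore. The deposited values are log2 RPM, with 0 reads entered as 0.9 of a read. Strands were not separated, so antisense reads count for a gene, and the placement of multi-mapping reads is not given in the sources used here. A further 89 value columns belong to no sample used here and were left out.

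Whole reads were recovered from every value (100% within 0.02 of a whole number) and library totals from the value of 1 read. Symbols were matched to the gene annotation by position. Features with at least 111 RPM (10 reads at median depth) in 2 or more libraries and at least 15 reads in all were kept (683). Reads were scaled by TMM factors (trims of 30% and 5%) and log2(RPM + 10) was fitted in 1 model of 3 groups in R 4.3.3 (limma 3.58.1, trended variance), Benjamini-Hochberg at 0.05 over all features. This fold change understates changes of low features. The reads of H19, Igf2 and Mest outside their miRNA were compared by exact permutation tests (scipy). The limma step was tested on simulated data. Group floors are 3 reads.

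Features, gene lists and tests were chosen with earlier results of these data known. Named were the 8 features, the 2 features closest to each tested one by Spearman rho, called members of the imprinted lists (there were none, so that Peg10 and Igf2r were named after their values were seen) and the Dlk1-Dio3 miRNAs as counts. A and B libraries differed by more than counting noise (mean chi-square per feature 14.2 to 79.7 with 1 degree of freedom) and were kept apart. They were correlated within pairs (consensus 0.30 over 683 features), whereas the main fit treats them as independent. With this correlation modelled, limma adjusted p in Dicer/Dnmt1 KO against WT was 4.97e-05 for Mir335, 0.00223 for Mir298 and 0.00163 for Mir296. With A and B summed, these log2 differences were -4.51, -2.39 and -3.11.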

Additional observations from a re-analysis of the deposited data

Results flagged for a closer look

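The rule used flags about 1 in 20 groups of normally distributed values, a rate that does not hold for counts this low. A group with reads in only 1 library always meets it. Of the 17 sets of library values examined, some of which share reads, 3 had an end value whose gap to the nearest library was the whole range. All 3 rest on 1 or 2 reads, with 0 in every other library of the group. Mir296 stood at 81.7 RPM (2 reads) in Dicer/Dnmt1 KO 1A. Igf2 outside Mir483 stood at 4.08 RPM (1 read) in WT 1A. Mest outside Mir335 stood at 13.3 RPM (2 reads) in Dicer/Dnmt1 KO 2B.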

How the results depend on the processing

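Between the knockouts, all 4 tested features kept their call (lower in the double knockout) under all 23 alternatives. Against WT, Mir335, Mest and Mir296 were called lower under all 26, and Mir298 under all but the fit without a filter. None of the fitted differences changed direction. In Dnmt1 KO against WT the count of 0 called became 1 (Mir298) with a pseudocount of 50, medians of ratios, factors from snoRNAs and snRNAs or voom weights, with adjusted p of 0.0182, 0.0360, 0.0293 and 0.0252, and 3 (Mir298, Mest and Mir335) without the pair titled E14 2, where calls over all features rose from 47 of 683 to 181 of 660. Leaving out 1 library at a time gave 0 to 1 call, with 1 (Mir298) without WT 2A, WT 2B, WT 3B, Dicer/Dnmt1 KO 1A or Dicer/Dnmt1 KO 2B. With A and B summed, H19 passed the filter only through the knockouts, so its call there (5 features in Dicer/Dnmt1 KO against WT) is a description only. The H19 reads outside Mir675 differed by 40.5 to 77.3 RPM when 1 library was left out. Library totals without scaling factors moved the median of all features by 0.70, -0.20 and 0.91 in Dicer/Dnmt1 KO against WT, Dnmt1 KO against WT and Dicer/Dnmt1 KO against Dnmt1 KO.

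Numbers 1 and 2 are shared by WT and Dicer/Dnmt1 KO, but the deviations of same-numbered libraries correlated at -0.37 over 683 features. With the number as a replicate block 4 of 4 features were called, as without it on the same 8 libraries, and over all features 124 were called both with and without it. With the numbers crossed, chosen after seeing the data, 134 were called. TMM factors over all features with reads were also added after seeing the data. Depth limits H19, Igf2, Mir675 and Mir483, at 24, 11, 1 and 4 reads.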
